A study of Mus musculus with 20 samples.

Results

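The NF-kB and TNF signaling genes described here are 39 genes listed by symbol: the Rel transcription factors (Nfkb1, Nfkb2, Rel, Rela, Relb), the IkB family (Nfkbia, Nfkbib, Nfkbie, Nfkbiz, Bcl3), receptors, adaptors and feedback regulators (Tnfrsf1a, Tnfrsf1b, Ripk1, Traf1, Traf2, Traf3, Birc2, Birc3, Tnfaip2, Tnfaip3, Tnip1), kinases (Ikbkb, Ikbkg, Ikbke, Map3k7, Map3k8), Casp8 and Cflar, secreted factors (Cxcl1, Cxcl2, Ccl2, Ccl7, Il6, Lif, Csf1), and Icam1, Vcam1, Sod2 and Ptgs2. The rule used no measured value, but the genes and the further lists used below were chosen with earlier results of these data known. Of the 39, 38 were among the 13107 genes of the Myc experiment, where Birc3 was not listed. The HU experiment listed 35 of them among its 11210 genes and lacked Birc3, Il6, Icam1 and Map3k8.

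In resting cells, NF-kB dimers are held in the cytoplasm by IkB proteins. Signals from TNF receptors, interleukin-1 and Toll-like receptors, and also DNA breaks, activate the IkB kinase complex, which marks IkB for degradation, and the freed dimers enter the nucleus and bind kappaB sites. Among the genes they switch on are their own inhibitors, so that the response limits itself, together with chemokines, cytokines and survival factors, and in the liver the pathway is known for its part in inflammation, regeneration and protection from TNF-induced cell death.

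The RNA came from p19/Nras cells, a liver cancer line (p19KONras in the labels, cell type HCC) from a tumor driven by Nras in p19/Arf-null mice, so that the controls also lack p19/Arf and carry Nras. In the Myc experiment, cells with sgCtrl (WT) or sgTrim33 (KO1 and KO2) carried the pWZL vector (Ctrl) or a Myc vector, in 6 groups of 2 libraries. In the HU experiment, sgCtrl cells (WT) and sgTrim33 cells (KO) received Vehicle (untreated) or 1 mM HU for 4 hours, in 4 groups of 2 libraries. Hydroxyurea (HU) depletes nucleotides and stalls replication forks, and Trim33 is a chromatin-binding ubiquitin ligase. The labels do not say which knockout line entered the HU experiment, whether a line is 1 clone, or whether the 2 libraries of a group came from separate cultures, so that p-values measure the spread between these libraries, which may be technical.

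A library of the Myc experiment held 14753177 to 17949430 counts, and a library of the HU experiment 2315327 to 3082202. Of the counts from 1 to 50 in the HU table, 71.9% were even numbers, against 48.4% in the Myc table. Levels are given in CPM, counts scaled to a common library size. Trim33 mRNA was at 139.7 and 125 CPM in WT untreated and 50.8 and 43.8 CPM in KO untreated libraries, and with the Ctrl vector WT libraries held 246 and 258, KO1 libraries 123 and 130.4 and KO2 libraries 201 and 207 CPM. With the Myc vector Trim33 was at 131 and 155 CPM in the libraries labelled WT Myc, 185 and 193 CPM in those labelled KO1 Myc and 124 and 125 CPM in those labelled KO2 Myc. It thus went against the labels between WT Myc and KO1 Myc, and KO2 Myc lay below WT Myc. The KO2 libraries with the Ctrl vector lay above all libraries labelled WT Myc or KO1 Myc, so Trim33 mRNA alone cannot decide the labels. Myc mRNA, the vector's own gene, was nearly level in the libraries labelled WT, at 433 and 439 CPM with the Ctrl and 456 and 458 CPM with the Myc vector. It was higher with the Myc vector in those labelled KO1, at 186 and 196 against 621 and 646 CPM, and KO2, at 210.3 and 219 against 459 and 499 CPM. Hepatocyte markers were nearly absent, with 2 of 18 listed in the Myc table (Afp and Ass1, summing to 0.221 to 34.9 CPM) and 1 of 18 in the HU table (Afp). Progenitor and biliary markers (Krt8, Krt18, Krt19, Sox9 and Spp1, 5 of 9) summed to 3105 to 6726 CPM in the Myc experiment and 2536 to 3443 CPM in the HU experiment. Mesenchymal markers (8 of 10 and 5 of 10) summed to 4831 to 8791 CPM and 3364 to 4103 CPM. Of 10 leukocyte markers only Cd68 was listed, at 0.790 to 6.30 CPM over both tables, and of 5 endothelial markers 0 were listed.

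RefSeq's promoter table (GRCm38.p6) had entries for 31 of the 39 genes. The entries of Nfkb1, Relb, Nfkbiz, Ccl2, Ccl7, Vcam1, Ikbkb and Map3k8 were missing. The kappaB consensus, 10 bases long, was searched on both strands, overlapping matches included, in the 250 bases before each transcription start. It was found for 13 of the 31 genes (41.9%), against 1204 of 27018 genes in the whole table (4.46%). The list holds many genes that were put on it as known NF-kB targets, so this share is a description of the list. Matches were seen for 8 of the 16 genes with an entry that rose after HU in WT cells and for 4 of the 12 that were not called. The last 150 bases before the start are printed for the genes that rose after HU in WT cells and hold a match in that stretch, so that the matches can be set beside the HU values given next. Capitals mark the kappaB matches, each sequence reads 5' to 3' on the gene's strand up to the base before the start, and the coordinates are those of its single exact match on its chromosome in mm9.
Nfkb2 (chr19:46379077-46379226, + strand): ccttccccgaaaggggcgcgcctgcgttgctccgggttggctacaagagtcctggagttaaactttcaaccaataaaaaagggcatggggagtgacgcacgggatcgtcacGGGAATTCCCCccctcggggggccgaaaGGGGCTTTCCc
Nfkbia (chr12:56593635-56593784, - strand): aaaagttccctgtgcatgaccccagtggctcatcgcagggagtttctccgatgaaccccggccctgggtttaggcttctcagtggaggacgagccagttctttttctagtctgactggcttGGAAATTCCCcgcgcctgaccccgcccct
Nfkbie (chr17:45692499-45692648, + strand): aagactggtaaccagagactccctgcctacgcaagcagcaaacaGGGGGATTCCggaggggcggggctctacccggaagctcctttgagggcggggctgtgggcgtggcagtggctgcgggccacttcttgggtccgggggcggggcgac
Tnfaip3 (chr10:18735217-18735366, - strand): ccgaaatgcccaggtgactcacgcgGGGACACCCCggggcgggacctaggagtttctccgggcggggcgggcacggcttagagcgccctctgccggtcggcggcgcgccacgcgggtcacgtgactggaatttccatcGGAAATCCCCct
Tnip1 (chr11:54776443-54776592, - strand): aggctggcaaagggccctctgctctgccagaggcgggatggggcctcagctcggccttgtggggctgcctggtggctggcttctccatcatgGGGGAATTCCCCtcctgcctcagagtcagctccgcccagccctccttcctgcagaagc
Cxcl1 (chr5:91320121-91320270, + strand): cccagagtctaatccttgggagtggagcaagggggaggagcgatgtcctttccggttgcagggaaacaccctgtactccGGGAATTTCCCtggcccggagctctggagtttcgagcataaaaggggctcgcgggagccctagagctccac
Cxcl2 (chr5:91332775-91332924, + strand): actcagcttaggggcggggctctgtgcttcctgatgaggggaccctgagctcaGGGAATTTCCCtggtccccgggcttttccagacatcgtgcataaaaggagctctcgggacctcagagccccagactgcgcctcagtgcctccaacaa
The chemokine genes Cxcl1 and Cxcl2 hold the same capital run, which starts 71 bases before the start in Cxcl1 and 97 bases before it in Cxcl2. In Nfkbia, the gene of the main IkB inhibitor, the match starts 29 bases before the start. Nfkb2 and Tnfaip3 have several transcription starts in the table, and the one printed is the first and the second of them, respectively. The windows of Traf1, Lif, Ptgs2, Rela, Nfkbib and Tnfaip2 held no match, which says only that these letters are not in those bases.

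After HU, each NF-kB and TNF signaling gene that passed the test was higher. In WT cells 21 of the 35 genes tested rose and 0 fell (edgeR's quasi-likelihood test, adjusted p below 0.05, here named called), while 9.83% of all genes were called, 6.39% higher and 3.44% lower. In KO cells 14 rose and 0 fell, against 6.45% of all genes, 4.65% higher and 1.8% lower. The median log2 fold change (log2FC) of the 35 genes was 0.74 in WT and 0.57 in KO, beside medians over all genes of 0 and -0.00985. The 14 genes called in KO were all also called in WT (100% of the 14 and 66.7% of the 21), with the same direction in 14 of 14, and these comparisons share no library. The same overlap over all genes is not given here, so it is not shown to be particular to these genes. In bulk RNA, more RNA per cell and a larger share of expressing cells cannot be told apart. Leaving out each library in turn kept 12 of the 21 calls in WT and 10 of the 14 in KO. The calls lost in at least 1 such fit were those of Ccl7, Csf1, Nfkbia, Nfkbib, Nfkbie, Nfkbiz, Tnfrsf1a, Tnip1 and Traf2 in WT, and of Ccl7, Nfkbie, Tnfaip3 and Tnip1 in KO.

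**Figure D1:**
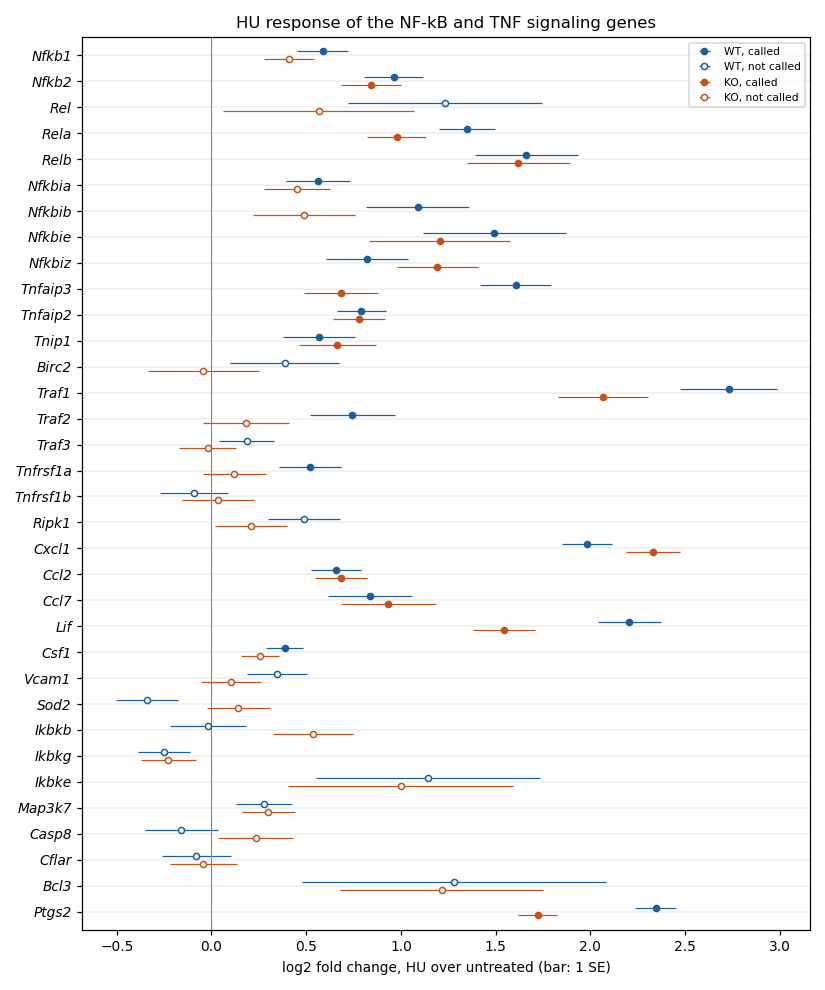
Log2 fold change of HU over untreated cells (x axis) for each NF-kB and TNF signaling gene of the HU table except Cxcl2 (y axis), in WT (blue) and KO (orange). Points are edgeR estimates, bars are 1 SE, and filled points are called at an adjusted p below 0.05. The called points all lie to the right of 0, from 0.39 for Csf1 to 2.73 for Traf1.

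Among the Rel factors, 4 of 5 rose in WT and 3 of 5 in KO. Rela encodes p65, the main activating subunit. Its levels were 59.97 and 65.03 CPM in WT untreated, 151 and 168 in WT HU, 50.8 and 58.1 in KO untreated and 113 and 102 in KO HU. The HU libraries lay above the untreated ones in both genotypes, and the WT HU libraries above the KO HU ones. The change was 2.54-fold in WT (log2FC 1.35, SE 0.15, adjusted p = 1.09e-10) and 1.97-fold in KO (log2FC 0.98, SE 0.15, adjusted p = 2.68e-06). Relb, a subunit of the alternative pathway, went from 12.9 and 12.03 to 42.00 and 36.7 CPM in WT and from 13.01 and 11.03 to 39.2 and 34.4 CPM in KO. This rise was close to 3-fold in both genotypes (3.16-fold, log2FC 1.66, SE 0.27, adjusted p = 4.66e-06 in WT, and 3.07-fold, log2FC 1.62, SE 0.27, adjusted p = 1.16e-05 in KO). Nfkb2, which encodes the p100 precursor processed to p52, rose from 53.98 and 84.6 to 135 and 136 CPM in WT (log2FC 0.96, SE 0.16, adjusted p = 4.49e-06) and from 61.4 and 78.2 to 132 and 119 CPM in KO (log2FC 0.84, SE 0.16, adjusted p = 8.38e-05). Nfkb1, which encodes p105 and p50, rose from 98.5 and 102 to 151 and 149.97 CPM in WT (log2FC 0.59, SE 0.13, adjusted p = 0.00136) and missed the threshold in KO, at 101 and 115 CPM without and 152 and 136 CPM with HU (log2FC 0.41, SE 0.13, adjusted p = 0.0507). Rel had only 8 to 42 counts per library and was not called in either genotype (log2FC 1.23, SE 0.51, adjusted p = 0.125 in WT). Per kilobase of exon, Rela stood at 58.7 CPM in WT HU, above Nfkb2 at 41.3, Nfkb1 at 31.4, Relb at 10.1 and Rel at 3.69.

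Of the IkB family, 4 of 5 genes rose in WT and 2 of 5 in KO. Nfkbie encodes IkB-epsilon. Its levels were 9.42 and 6.01 CPM in WT untreated and 20.4 and 22.9 in WT HU (log2FC 1.49, SE 0.38, adjusted p = 0.00439), and went from 12.2 and 5.35 to 23.3 and 16.2 CPM in KO (log2FC 1.21, SE 0.37, adjusted p = 0.0347). The groups did not overlap, but the KO replicates were far apart, and the KO log2FC was 1.89 without KO untreated replicate 1 and 0.69 without replicate 2. Nfkbia, the fast feedback inhibitor IkB-alpha, went from 60.4 and 60.1 to 92.9 and 85.2 CPM in WT (log2FC 0.56, SE 0.17, adjusted p = 0.0192) and from 45.5 and 57.5 to 67.9 and 73.9 CPM in KO (log2FC 0.45, SE 0.17, adjusted p = 0.118, not called). Nfkbib, IkB-beta, went from 12.9 and 19.5 to 36.3 and 33.2 CPM in WT (log2FC 1.09, SE 0.27, adjusted p = 0.00378) and from 17.9 and 23.4 to 33.6 and 24.5 CPM in KO (log2FC 0.49, SE 0.27, adjusted p = 0.35, not called). Nfkbiz encodes IkB-zeta, a nuclear cofactor of NF-kB. It rose from 31.7 and 25.6 to 46.5 and 54.4 CPM in WT (log2FC 0.82, SE 0.22, adjusted p = 0.00668) and from 32.1 and 22.7 to 57.3 and 67.2 CPM in KO (log2FC 1.19, SE 0.21, adjusted p = 3.66e-05). Bcl3, another nuclear IkB protein, had 2 to 34 counts per library and was not called after HU in either genotype.

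Of the 10 receptors, adaptors and feedback regulators tested, 6 rose in WT and 4 in KO. The largest log2FC in WT among the genes with more than 3 counts in every library was that of Traf1, an adaptor of TNF receptors that is itself an NF-kB target. Its levels were 8.996 and 9.40 CPM in WT untreated, 56.6 and 66.2 in WT HU, 12.2 and 15.4 in KO untreated and 59.7 and 56.9 in KO HU. This was a 6.63-fold rise in WT (log2FC 2.73, SE 0.26, adjusted p = 2.72e-13) and a 4.19-fold rise in KO (log2FC 2.07, SE 0.24, adjusted p = 4.37e-10). Tnfaip3 encodes A20, a ubiquitin-editing enzyme that shuts off TNF signaling. It went from 27.4 and 38.3 to 98.3 and 103 CPM in WT, and from 32.5 and 35.4 to 55.1 and 54.1 CPM in KO. Untreated levels overlapped between the genotypes, while both KO HU libraries lay well below both WT HU libraries. The rise was 3.04-fold in WT (log2FC 1.61, SE 0.19, adjusted p = 6.67e-10) and 1.60-fold in KO (log2FC 0.68, SE 0.20, adjusted p = 0.0189). Tnfaip2, a TNF-induced gene, rose in both genotypes (0.79 ± 0.13 in WT and 0.78 ± 0.14 in KO, log2FC ± SE, n = 2 per group), from 115 and 133 to 222 and 207 CPM in WT and from 80.1 and 88.2 to 151 and 138 CPM in KO. Tnip1, a partner of A20, went from 47.1 and 46.6 to 75.7 and 63.03 CPM in WT (log2FC 0.57, SE 0.19, adjusted p = 0.0439) and from 27.6 and 40.1 to 56.9 and 51.4 CPM in KO (log2FC 0.66, SE 0.20, adjusted p = 0.0299). Traf2, which brings ubiquitin ligases to TNF receptors, went from 29.6 and 23.7 to 49.6 and 39.1 CPM in WT (log2FC 0.74, SE 0.23, adjusted p = 0.0225). Tnfrsf1a, the main TNF receptor, went from 68.5 and 55.6 to 92.9 and 84.5 CPM in WT (log2FC 0.52, SE 0.17, adjusted p = 0.0306). Neither was called in KO (log2FC 0.18 and 0.12). Tnfrsf1b, the second TNF receptor, Ripk1, the kinase at the receptor complex, and Traf3 and Birc2, which restrain the alternative pathway, were not called in either genotype, with log2FC from -0.09 to 0.49 in WT.

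All 6 secreted factors in the HU table rose in WT, and 4 of them in KO. The neutrophil chemokine Cxcl1 was at 81.8 and 78.9 CPM in WT untreated and 325 and 309.6 in WT HU, and went from 55.3 and 44.1 to 276 and 220.5 CPM in KO. It rose 3.95-fold in WT (log2FC 1.98, SE 0.13, adjusted p = 2.06e-19) and 5.03-fold in KO (log2FC 2.33, SE 0.14, adjusted p = 2.13e-21), from a lower level in KO. Cxcl2, a related chemokine, had 0 counts in the 4 untreated libraries, 20 and 26 counts in WT HU and 4 and 0 counts in KO HU. Its level in WT HU was 6.37-fold that of a floor of 3 counts per untreated library. Lif, a cytokine of the interleukin-6 family, went from 35.1 and 33.1 to 157 and 158 CPM in WT (log2FC 2.20, SE 0.17, adjusted p = 3.4e-17) and from 43.5 and 37.1 to 129 and 105 CPM in KO (log2FC 1.55, SE 0.16, adjusted p = 3.16e-11). The monocyte chemokine Ccl2 went from 125 and 110.1 to 192 and 178 CPM in WT and from 75.6 and 93.6 to 137 and 136 CPM in KO. It rose in both (log2FC 0.66, SE 0.13, adjusted p = 0.000198 in WT and log2FC 0.68, SE 0.14, adjusted p = 0.000315 in KO). The neighbouring chemokine gene Ccl7 went from 29.1 and 30.1 to 46.5 and 59.6 CPM in WT (log2FC 0.84, SE 0.22, adjusted p = 0.00686) and from 17.5 and 16.4 to 31.1 and 33.6 CPM in KO (log2FC 0.93, SE 0.25, adjusted p = 0.01). Csf1, the macrophage growth factor, moved least, from 464 and 461 to 600.1 and 609 CPM in WT (log2FC 0.39, SE 0.10, adjusted p = 0.00564), and was not called in KO (log2FC 0.26, SE 0.10, adjusted p = 0.124).

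Ptgs2, which encodes the prostaglandin-producing enzyme Cox-2, had the smallest adjusted p-values of the list after HU in both genotypes. It was at 318 and 249.99 CPM in WT untreated, 1455 and 1428 in WT HU, 696 and 623 in KO untreated and 2299 and 2050.04 in KO HU. Every HU library lay above every untreated library, and within each condition both KO libraries lay above both WT libraries. HU raised it 5.08-fold in WT (log2FC 2.35, SE 0.11, adjusted p = 1.4e-27) and 3.30-fold in KO (log2FC 1.72, SE 0.10, adjusted p = 1.06e-21). The adhesion molecule Vcam1 and the mitochondrial superoxide dismutase Sod2, both known NF-kB targets, were not called in either genotype (log2FC 0.34, SE 0.16, adjusted p = 0.183 and log2FC -0.34, SE 0.17, adjusted p = 0.216 in WT). Of the 4 kinases in the table (Ikbkb, Ikbkg, Ikbke and Map3k7), and of Casp8 and its inhibitor Cflar, 0 were called after HU by edgeR. In WT their log2FC ran from -0.25 for Ikbkg to 1.14 for Ikbke, which had 4 to 26 counts per library. DESeq2 called 16 of the 35 members after HU in WT and 11 in KO.

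**Figure D2:**
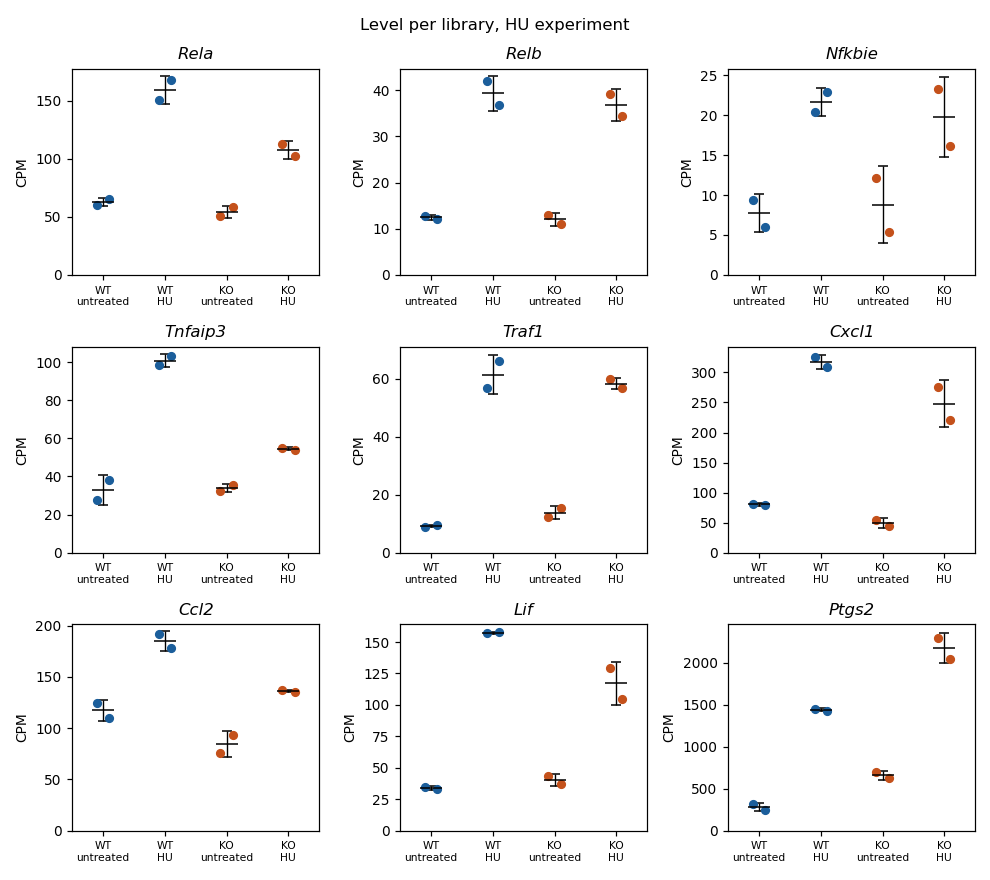
Level in CPM (y axis) in each library of the HU experiment for 9 members, in WT (blue) and KO (orange), with the mean (dash) and SD (bar) of the 2 libraries of each group. For each gene both HU libraries lie above both untreated libraries of the same genotype. Tnfaip3 reached 98.3 and 103 CPM in WT HU but 55.1 and 54.1 CPM in KO HU.

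No member's HU response differed between WT and KO past the threshold. The interaction term, the log2FC in KO less that in WT, was called for 0 of 35 members by edgeR and 0 by DESeq2, with 4 at an unadjusted p below 0.05, beside 0.0714% of all genes (0.0446% higher and 0.0268% lower). Those 4 were Ptgs2 (log2FC -0.62, SE 0.14, adjusted p = 0.0721), Tnfaip3 (log2FC -0.92, SE 0.27, adjusted p = 0.565), Lif (log2FC -0.66, SE 0.24, adjusted p = 0.76) and Sod2 (log2FC 0.48, SE 0.23, adjusted p = 0.91). For the first 3 the estimate was smaller in KO. The term was positive for 12 of the 35 members and for 5491 of the 11210 genes. The call of Ptgs2 depended on the fit, with an adjusted p of 0.000432 without WT untreated replicate 1. For the chemokines Ccl2 and Ccl7 the difference was near 0, at 0.02 ± 0.19 and 0.10 ± 0.33 (log2FC ± SE).

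In direct comparison under HU, 13 members were called between KO and WT, 3 higher and 10 lower in KO, against 11% of all genes, 5.75% higher and 5.25% lower. Lower in KO HU were Tnfaip3 (log2FC -0.88, SE 0.18, adjusted p = 0.000235), Rela (log2FC -0.57, SE 0.14, adjusted p = 0.0036), Tnfaip2 (log2FC -0.57, SE 0.13, adjusted p = 0.000938), Ccl7 (log2FC -0.71, SE 0.22, adjusted p = 0.0228), Ccl2 (log2FC -0.44, SE 0.13, adjusted p = 0.0166), Lif (log2FC -0.42, SE 0.14, adjusted p = 0.0431) and Cxcl1 (log2FC -0.35, SE 0.12, adjusted p = 0.0426), as well as Cxcl2. Traf3 was at 82.4 and 82.98 CPM in KO HU and 114 and 113 in WT HU, and Ikbkg was at 94.7 and 81.01 CPM in KO HU against 128 and 118 in WT HU, and both genes were called lower in KO. Higher were Ptgs2 (log2FC 0.59, SE 0.10, adjusted p = 1.09e-05), Map3k7, the TAK1 kinase upstream of the IkB kinases, at 153 and 141 CPM against 107 and 99.7 CPM in WT (log2FC 0.51, SE 0.14, adjusted p = 0.00944), and Bcl3, with 32 and 34 counts in KO HU and 11 and 7 in WT HU. Only the calls of Ptgs2 and Tnfaip3 held in every fit that left out a library. Without any 1 HU library fewer members were called, and fewer of all genes as well.

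Part of these differences was already present without HU. Between KO and WT untreated cells 8 members were called, 2 higher and 6 lower in KO, against 12% of all genes, 6.29% higher and 5.74% lower. The 3 chemokines Cxcl1 (log2FC -0.70, SE 0.15, adjusted p = 0.00103), Ccl7 (log2FC -0.81, SE 0.25, adjusted p = 0.0257) and Ccl2 (log2FC -0.46, SE 0.14, adjusted p = 0.021) were lower, as were Tnfaip2 (log2FC -0.56, SE 0.14, adjusted p = 0.00362), the catalytic IkB kinase Ikbkb (log2FC -0.73, SE 0.21, adjusted p = 0.0152) and its regulatory partner Ikbkg (log2FC -0.50, SE 0.14, adjusted p = 0.0117). Ikbkb stood at 55.7 and 44.7 CPM in WT and 28.5 and 31.7 CPM in KO, and Ikbkg at 162 and 131 CPM in WT against 108 and 98.9 in KO. Ptgs2 (log2FC 1.22, SE 0.11, adjusted p = 3.67e-14) and Map3k7 (log2FC 0.49, SE 0.15, adjusted p = 0.0202) were higher. The call of Ptgs2 was kept in every fit that left out a library, and the other 7 were lost in at least 1. Without any 1 untreated library fewer members were called, and fewer of all genes as well.

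In the Myc experiment, whose libraries held more counts, more members were called between knockout lines and WT, and more of all genes as well. With the Ctrl vector, 26 of 38 members were called in KO1 against WT (adjusted p below 0.01 in this experiment), 16 higher and 10 lower, but 52.2% of all genes were called as well, 25.5% higher and 26.7% lower. In KO2, 23 were called, 11 higher and 12 lower, against 49.9% of all genes, 23.3% higher and 26.6% lower. The median log2FC over the members was 0.18 in KO1 and 0.04 in KO2, beside -0.00362 and -0.0112 over all genes. KO1 and KO2 were set against the same WT Ctrl libraries. Fits that left out a library lost the calls of Birc2, Cxcl1, Ikbkb, Ikbke, Map3k7, Nfkb1, Nfkbie, Ripk1 and Tnfrsf1a in KO1 and of Ikbkg, Map3k7, Nfkbie, Ripk1, Traf2 and Traf3 in KO2, and kept 17 calls in each line.

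Among the inhibitors, Nfkbia and Nfkbib moved in opposite directions. Nfkbia was at 30.2 and 30.1 CPM in WT Ctrl, 54.8 and 59.4 in KO1 and 57.2 and 53.9 in KO2 (log2FC 0.92, SE 0.08, adjusted p = 3.07e-08 in KO1 and log2FC 0.88, SE 0.08, adjusted p = 6.45e-08 in KO2). Nfkbib was at 49.6 and 49.4 CPM in WT Ctrl, 20.4 and 17.7 in KO1 and 20.8 and 19.4 in KO2 (log2FC -1.38, SE 0.11, adjusted p = 1.09e-08 and log2FC -1.30, SE 0.10, adjusted p = 2.41e-08). The WT libraries thus lay below all 4 knockout libraries for Nfkbia and above them for Nfkbib. Of the Rel factors, Relb (log2FC -0.54 in KO1 and -0.88 in KO2) and Nfkb2 (-0.60 and -0.49) were lower in both lines.

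Several feedback regulators were lower in the knockout lines. Tnfaip2 was at 487 and 487 CPM in WT Ctrl, 208 and 226 in KO1 and 250.2 and 252 in KO2 (log2FC -1.17, SE 0.06, adjusted p = 4.74e-11 and log2FC -0.96, SE 0.06, adjusted p = 6.79e-10). Traf1 was at 23.8 and 21.3 CPM in WT, at 8.05 and 10.2 in KO1 and at 11.3 and 11.9 in KO2 (log2FC -1.30, SE 0.17, adjusted p = 4.38e-06 and log2FC -0.96, SE 0.16, adjusted p = 7.83e-05). Tnip1 was lower in both lines (log2FC -0.53 and -0.62), and Tnfaip3 was called in KO1 (-0.71) and not in KO2 (-0.14). The TNF receptor Tnfrsf1b went the other way, at 42.9 and 37.5 CPM in WT Ctrl, 86.4 and 84.8 in KO1 and 71.1 and 69.3 in KO2 (log2FC 1.09, SE 0.09, adjusted p = 2.61e-08 and log2FC 0.80, SE 0.09, adjusted p = 1.21e-06). Of the kinases, Map3k7 was higher in both lines, at 81.7 and 83.1 CPM in WT Ctrl, 101 and 97.00 in KO1 and 99.7 and 109 in KO2 (log2FC 0.26 and 0.34). Ikbkb was lower, at 63.3 and 67.7 CPM in WT, at 50.9 and 54.7 in KO1 and at 51.9 and 49.4 in KO2 (-0.31 and -0.37). In KO untreated cells of the HU experiment, Map3k7 was likewise higher (log2FC 0.49), and Ikbkb (-0.73) and Tnfaip2 (-0.56) were lower. Traf1, Nfkbib, Tnfrsf1b, Nfkbia, Tnip1, Relb and Nfkb2 were not called there. In KO against WT untreated cells, mean CPM was higher for Traf1 (13.78 against 9.197) and Nfkbib (20.64 against 16.2). It was lower for Tnfrsf1b (49.29 against 68.11) and Nfkbia (51.5 against 60.27). These means went against the direction in KO1 and KO2. Tnip1 went with it (33.87 against 46.87), and Relb and Nfkb2 were nearly level.

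Of the genes called in KO1, KO2 and KO untreated cells, Ptgs2, Ccl2, Ccl7 and Ikbkg went in opposite directions between the experiments. Ptgs2 fell in both lines, from the WT Ctrl level to 765 and 746 CPM in KO1 and 801 and 699 in KO2 (log2FC -1.86, SE 0.10, adjusted p = 1.03e-10 and log2FC -1.87, SE 0.10, adjusted p = 1.45e-10), whereas in the HU experiment KO untreated cells held 2.32 times the WT level. Its level in WT cells was 2719.6 and 2757 CPM in the Myc experiment and 318 and 249.99 CPM in the HU experiment, in tables that were normalized separately. Ccl2 was higher in the lines of the Myc experiment, at 52.99 and 45.8 CPM in WT Ctrl, 141 and 155 in KO1 and 76.9 and 72.1 in KO2 (log2FC 1.58, SE 0.08, adjusted p = 7.12e-11 and log2FC 0.59, SE 0.08, adjusted p = 1.23e-05). Ccl7 was at 5.79 and 4.44 CPM in WT, at 24.1 and 23.4 in KO1 and at 11.2 and 10.4 in KO2 (log2FC 2.21, SE 0.15, adjusted p = 3.15e-09 and log2FC 1.08, SE 0.17, adjusted p = 5.19e-05), and Ikbkg was also higher (log2FC 0.55 and 0.34). Cxcl1, lower in KO untreated cells, was higher in KO1 (0.46) and not called in KO2 (-0.31). The difference between the experiments was not tested, since no library or table is shared. Lif was lower in both lines, at 123 and 99.5 CPM in WT Ctrl, 59.6 and 67.7 in KO1 and 66.4 and 61.3 in KO2 (log2FC -0.81 and -0.80). In KO untreated cells its mean was higher, at 40.3 against 34.1 CPM in WT untreated, and was not called. Il6, with 5 and 3 counts in WT Ctrl, 21 and 25 in KO1 and 5 and 8 in KO2, was called in KO1 (log2FC 2.42, SE 0.42, adjusted p = 9.59e-05). Vcam1 was higher in both lines, more so in KO1 (log2FC 0.82 and 0.30).

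**Figure D3:**
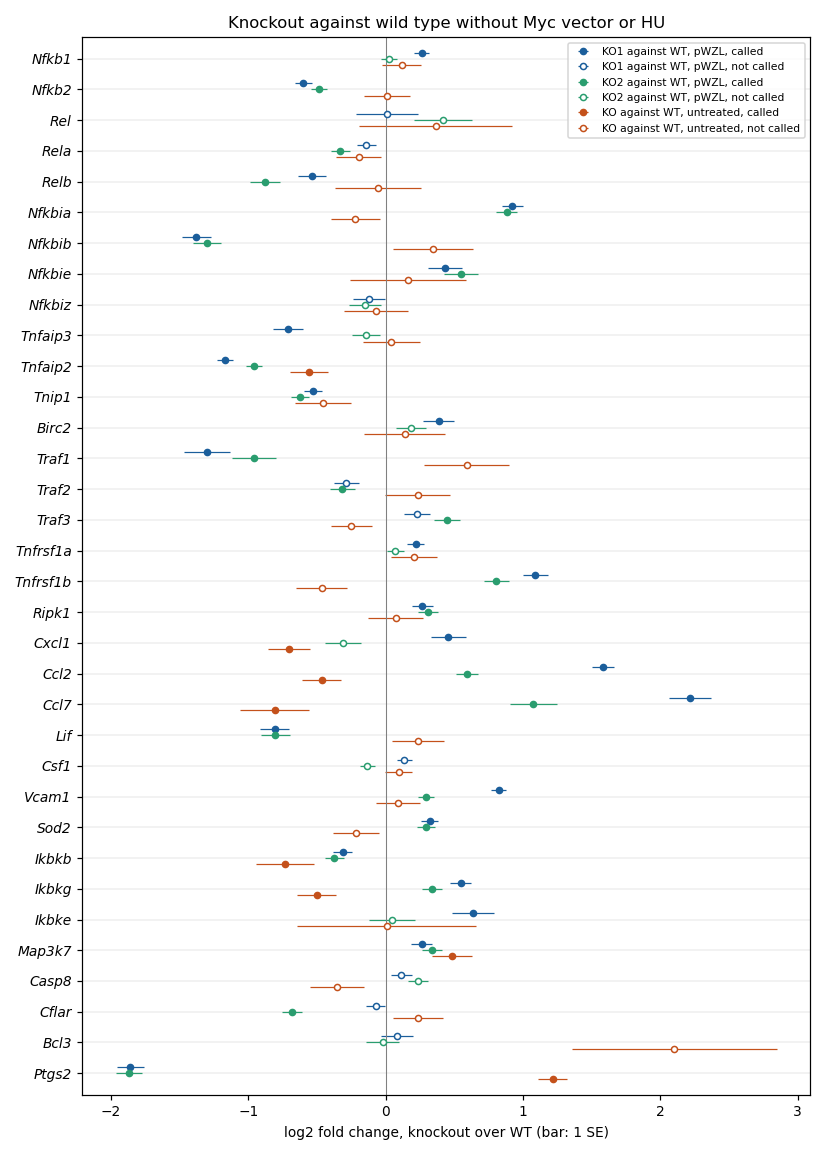
Log2 fold change of knockout over WT (x axis) for each NF-kB and TNF signaling gene present in both tables except Cxcl2 (y axis), for KO1 (blue) and KO2 (green) with the Ctrl vector pWZL and for KO untreated cells of the HU experiment (orange). Points are edgeR estimates, bars are 1 SE, and filled points are called at an adjusted p below 0.01 in the Myc experiment and below 0.05 in the HU experiment. Ptgs2 lies at -1.86 and -1.87 in the Myc experiment and at 1.22 in the HU experiment.

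The 2 knockout lines also differed from each other, and 5 of the 10 members called between them encode secreted factors. Between KO2 and KO1 with the Ctrl vector 10 members were called, 1 higher and 9 lower in KO2, against 18.3% of all genes, 8.33% higher and 9.96% lower. Lower in KO2 were Ccl7 (log2FC -1.14, SE 0.13, adjusted p = 6.39e-06), Ccl2 (log2FC -0.99, SE 0.08, adjusted p = 6.32e-08), Cxcl1 (log2FC -0.77, SE 0.13, adjusted p = 0.000256), Il6, Csf1, Vcam1 (log2FC -0.53, SE 0.06, adjusted p = 2.24e-06), Cflar, the inhibitor of caspase-8 (log2FC -0.61, SE 0.07, adjusted p = 7.31e-06), Ikbke and Nfkb1, and Tnfaip3 was higher (log2FC 0.57, SE 0.11, adjusted p = 0.000887). The count was 6 without any 1 of the 4 libraries compared, and 16 with the 2 groups alone in the fit. The calls of Ccl2, Ccl7, Cxcl1, Vcam1 and Cflar were kept in every fit that left out a library.

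Compared with WT Ctrl, chemokine genes were higher in the libraries labelled WT Myc, although Myc mRNA itself differed little between these groups. Trim33 mRNA was lower in those labelled WT Myc, at 131 and 155 CPM against 246 and 258 CPM in WT Ctrl. The vector and the Trim33 level were not tested apart. In the libraries labelled WT Myc 19 members were called against WT Ctrl, 12 higher and 7 lower, beside 44.3% of all genes, 21.6% higher and 22.7% lower. The count was 16 with the 2 groups alone in the fit. Ccl2 went from 52.99 and 45.8 CPM in WT Ctrl to 286 and 254 CPM (log2FC 2.45, SE 0.08, adjusted p = 4.21e-12), Ccl7 from 5.79 and 4.44 to 28.7 and 24.2 CPM (log2FC 2.37, SE 0.15, adjusted p = 3.79e-09), and Cxcl1 from 52.6 and 46.9 to 157 and 119 CPM (log2FC 1.47, SE 0.12, adjusted p = 6.29e-08). Cxcl2 had 5 and 1 counts in WT Ctrl and 40 and 22 in WT Myc. Nfkbia rose from 30.2 and 30.1 to 66.02 and 63.4 CPM (log2FC 1.10, SE 0.08, adjusted p = 8.62e-09), and Nfkbie (0.79), Bcl3 (0.84), Tnfrsf1b (0.73), Ikbke (0.99) and Sod2 (0.56) rose by smaller log2FC. Ptgs2 fell from 2719.6 and 2757 to 1423 and 1139.8 CPM (log2FC -1.10, SE 0.10, adjusted p = 1.1e-07), Cflar from 93.2 and 96.3 to 37.9 and 44.1 CPM (log2FC -1.21, SE 0.07, adjusted p = 2.6e-09), and Nfkbib from 49.6 and 49.4 to 33.4 and 25.7 CPM (log2FC -0.75, SE 0.10, adjusted p = 9.74e-06). The calls of Casp8, Csf1, Cxcl2 and Nfkb2 were lost in at least 1 fit that left out a library.

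In the libraries labelled KO1 Myc, whose Trim33 level lay above that of KO1 Ctrl and of WT Myc, 19 members were called against KO1 Ctrl, 8 higher and 11 lower (all genes 36.1%, 17.9% higher and 18.2% lower), and in KO2 15 were called, 6 higher and 9 lower (38.8%, 20.2% higher and 18.6% lower). In KO2 the count was 8 without KO2 Ctrl replicate 1 and 7 without KO2 Ctrl replicate 2 or KO2 Myc replicate 2, and the calls of Vcam1, Csf1, Tnfaip3 and Icam1 were kept in every fit that left out a library. In KO1 such fits lost the calls of Casp8, Cxcl2, Nfkbia, Nfkbib, Nfkbiz, Ptgs2, Sod2, Tnfaip3 and Traf1. Ccl2 fell in KO1 (log2FC -0.42, SE 0.07, adjusted p = 0.000209) and rose in KO2 (log2FC 0.37, SE 0.08, adjusted p = 0.000854), and Nfkbia fell in both (log2FC -0.31 and -0.27). Vcam1 fell from 168 and 182 to 50.5 and 51.6 CPM in KO1 (log2FC -1.78, SE 0.06, adjusted p = 1.39e-12). Cflar fell in KO1, from 91.95 and 88.3 to 47.7 and 46.02 CPM (log2FC -0.94, SE 0.07, adjusted p = 2.78e-08), and was not called in KO2, at 60.1 and 58.02 CPM with the Ctrl and 51.8 and 48.5 CPM with the Myc vector. Tnfaip3 rose in KO1 and fell in KO2 (log2FC 0.52 and -0.96). The adhesion molecule Icam1 was near 0 with the Ctrl vector, at 0 and 0 counts in WT Ctrl, 0 and 3 in KO1 and 1 and 0 in KO2. With the Myc vector it had 10 and 13 counts in the libraries labelled WT Myc, 23 and 23 in KO1 and 35 and 29 in KO2, at least 3.40-fold higher than a floor of 3 counts per library in WT. All 6 Myc libraries exceeded all 6 Ctrl libraries for Icam1. Il6 fell to 3 and 3 counts in KO1 Myc, and Cxcl2 had 0 and 3 counts in KO1 Ctrl, 23 and 19 in KO1 Myc, 0 and 0 in KO2 Ctrl and 10 and 17 in KO2 Myc.

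**Figure D4:**
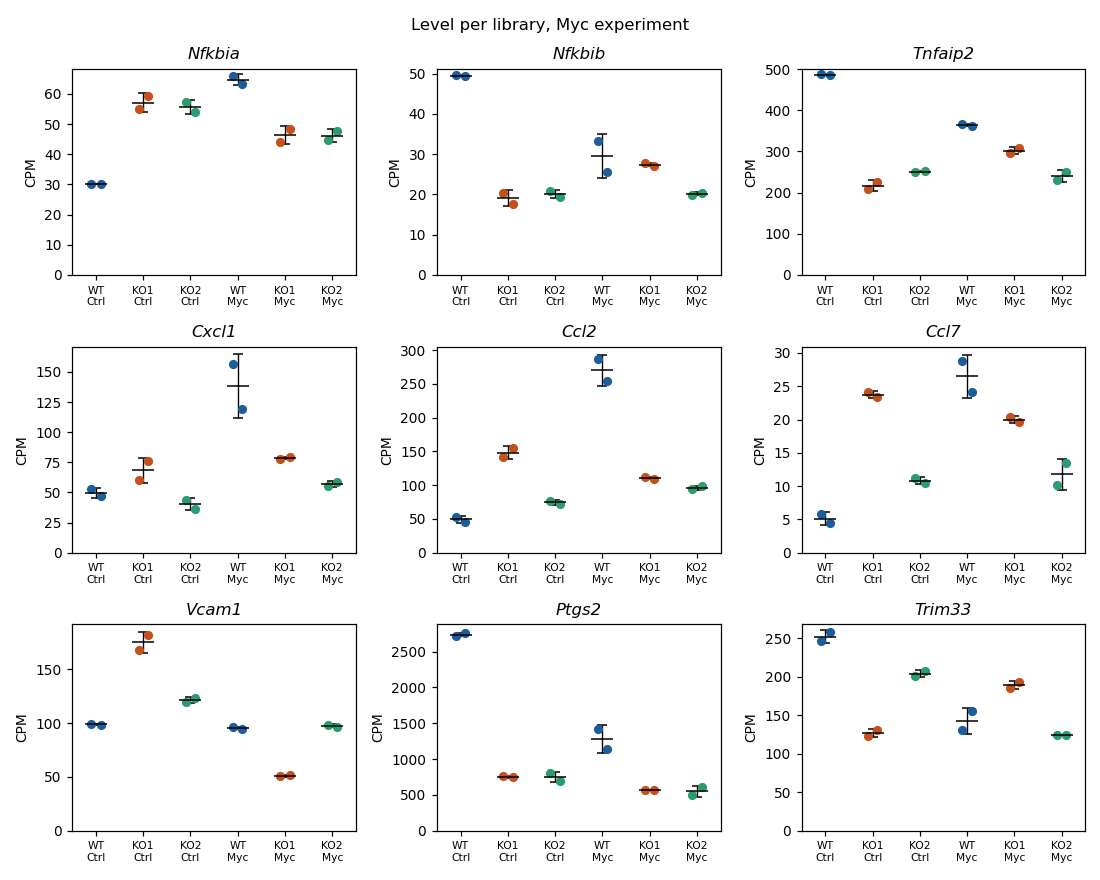
Level in CPM (y axis) in each library of the Myc experiment for 8 members and for Trim33, in WT (blue), KO1 (orange) and KO2 (green) with the Ctrl or the Myc vector as labelled, with the mean (dash) and SD (bar) of the 2 libraries of each group. Ccl2 reached 286 and 254 CPM in the libraries labelled WT Myc, and Trim33 lay at 131 and 155 CPM there.

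With the Myc vector, most members called between genotypes were lower in the libraries labelled as knockout. Against the libraries labelled WT Myc, 16 members were called in KO1, 4 higher and 12 lower, beside 25.1% of all genes, 12.6% higher and 12.5% lower. In KO2, 21 were called, 5 higher and 16 lower, beside 35.2% of all genes, 17.2% higher and 18% lower. With the 2 groups alone in the fit, 11 members were called in KO1 and 17 in KO2. The 2 libraries labelled WT Myc lay furthest apart, with a squared difference per gene, relative to counting error, of 11.1. It was 2.25 to 4.53 in the other groups of this experiment, while the main fit estimates the spread over all groups. Among the largest differences were those of Ccl2 (log2FC -1.29, SE 0.07, adjusted p = 1.67e-09 in KO1 and log2FC -1.49, SE 0.07, adjusted p = 1.39e-10 in KO2), Ptgs2 (log2FC -1.17, SE 0.10, adjusted p = 1.25e-07 and log2FC -1.22, SE 0.10, adjusted p = 3.71e-08), Cxcl1 (log2FC -0.81, SE 0.12, adjusted p = 4.84e-05 and log2FC -1.27, SE 0.12, adjusted p = 2.53e-07), and, in KO2, Tnfaip3 (log2FC -1.36, SE 0.11, adjusted p = 3.52e-08) and Ccl7 (log2FC -1.16, SE 0.12, adjusted p = 1.39e-06). Ccl2 was at 286 and 254 CPM in the libraries labelled WT Myc, 111 and 109.5 in KO1 Myc and 94.1 and 98.6 in KO2 Myc. Ptgs2 was at 1423 and 1139.8 CPM in WT, at 572 and 568 in KO1 and at 498 and 604 in KO2, and Cxcl1 at 157 and 119 CPM in WT, at 77.9 and 79.4 in KO1 and at 55.3 and 58.7 in KO2. For these 3 genes all WT Myc libraries lay above all knockout libraries. Tnfaip3 was at 27.8 and 29.05 CPM in WT Myc and 10.7 and 11.4 in KO2 Myc, Ccl7 at 28.7 and 24.2 against 10.1 and 13.4, and Traf1 at 24.5 and 17.6 against 8.72 and 11.9 (log2FC -1.02, SE 0.16, adjusted p = 7.25e-05). Nfkbia, higher in both lines with the Ctrl vector, was lower in both with the Myc vector (log2FC -0.48 and -0.49). Higher in both were the growth factor Csf1 (0.44 and 0.64), Map3k7 (0.52 and 0.58) and Traf3 (0.39 and 0.41). Calls lost when a library was left out were those of Nfkbie, Rel, Tnfaip2, Tnfaip3 and Traf3 in KO1 and of Casp8, Cflar, Icam1, Ikbke and Traf3 in KO2. The directions between WT Myc and KO1 Myc rest on labels that Trim33 mRNA goes against but cannot decide, since KO2 Ctrl libraries held 201 and 207 CPM. The KO1 count would read 12 higher and 4 lower with these labels exchanged. The KO2 comparison uses the same libraries labelled WT Myc. With the exchange, KO2 Myc would be set against the libraries labelled KO1 Myc. Their levels of Ccl2, Ptgs2 and Cxcl1 lay nearer those of KO2 Myc, and this contrast was not tested.

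The interaction term of this experiment, the mean Myc effect of both knockout lines less that in WT, was called for 19 of 38 members, 6 higher and 13 lower, against 34.7% of all genes, 18.1% higher and 16.6% lower. Among the called members it was furthest from 0 for Ccl2 (log2FC -2.48, SE 0.10, adjusted p = 7.16e-11), Ccl7 (log2FC -2.43, SE 0.18, adjusted p = 2.58e-08), Nfkbia (log2FC -1.39, SE 0.09, adjusted p = 8.09e-09), Cxcl1 (log2FC -1.12, SE 0.15, adjusted p = 1.62e-05) and Nfkbib (log2FC 1.01, SE 0.13, adjusted p = 7.95e-06). Cxcl2 (log2FC 1.94, SE 1.38, adjusted p = 0.27) and Icam1 (log2FC -1.91, SE 1.80, adjusted p = 0.407), whose fitted values depend on the prior count because a group had 0 counts, were not called. The term rests on all 6 Myc libraries, those labelled WT Myc and KO1 Myc included. The calls of Ikbke, Ikbkg and Tnfaip3 were lost in at least 1 fit that left out a library.

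Further genes of the pathway were taken from 2 lists. Of 67 other genes of the receptor and kinase pathways, 53 were in the HU table, and 7 rose and 0 fell after HU in WT, with a median log2FC of 0.12, while in KO 5 rose and 2 fell (median 0.09). This was 13.2% of these 53 genes in each genotype, beside 9.83% and 6.45% of all genes. One was Fas, a death receptor of the TNF receptor family and also a known p53 target, with counts of 2 and 2 in WT untreated, 31 and 20 in WT HU, 0 and 3 in KO untreated and 25 and 20 in KO HU. Of 55 other NF-kB target genes, 29 were in the HU table, and 17 rose and 0 fell in WT (median 1.14) and 16 rose and 0 fell in KO (median 1.01), or 58.6% and 55.2% of these 29 genes. Csf2, the granulocyte and macrophage growth factor, was among them, with counts of 10 and 18 in WT untreated, 109 and 102 in WT HU, 28 and 44 in KO untreated and 332 and 217 in KO HU. In the Myc experiment 33 of 54 pathway genes (14 higher and 19 lower) and 33 of 44 target genes (18 higher and 15 lower) were called in KO1 with the Ctrl vector, and 28 (12 and 16) and 32 (11 and 21) in KO2. The pathway genes were thus called at 61.1% and 51.9%, near the 52.2% and 49.9% of all genes, and the target genes at 75% and 72.7%.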

How the data were processed

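Counts per gene were deposited by the authors for 12 libraries of the Myc experiment and 8 of the HU experiment. The Myc table is named as normalized, but it holds whole numbers with a different total in each library and was taken as raw counts, which all tests of that experiment assume. Tables of the authors' own fold changes and p-values were not used. The submitters' processing notes name STAR 2.5.4, edgeR 3.26.8 and mm9 (bcl2fastq 2.20 and FastQC 0.11.5 for HU). The counting tool is not given in the sources used here. Each experiment was fitted separately on all its genes with edgeR 4.0.16 (R 4.3.3): TMM scaling, filterByExpr (which removed 0 genes), 1 coefficient for each group, and quasi-likelihood tests with Benjamini-Hochberg adjustment over all genes. Genes were called at an adjusted p below 0.01 (Myc) or 0.05 (HU), 2-sided. SE is the log2FC size divided by the root of the test's F. The floor was 3 counts per library and covers counting error only, on the assumption that each count is a separate fragment. That assumption was not tested for the HU experiment, where 71.9% of counts from 1 to 50 were even. With 2 libraries per group a permutation test cannot go below p = 0.333. On simulated data, 64.5% of 200 genes changed by log2FC 1 among 11210 genes were recovered for HU in WT, with 5 false calls. Promoter sequences from RefSeq were located in mm9 by exact match. All 39 genes could be named. The genes and the lists were chosen with earlier results of these data known. The alternatives were DESeq2 1.42.0 and its size factors, other filters, fits of the compared groups alone, a replicate block, halved counts (HU) and leaving out each library.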

Additional observations from a re-analysis of the deposited data

Results flagged for a closer look

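The mean effect of the Myc vector over the knockout lines differed from that in WT for 19 members by the interaction term (edgeR's quasi-likelihood test, adjusted p below 0.01). Negative values mean a lower log2FC in the knockout lines, and all 19 rest on the libraries labelled WT Myc and KO1 Myc, between which Trim33 mRNA goes against the labels. Among the secreted and adhesion factors the term was -2.48 for Ccl2, -2.43 for Ccl7, -1.12 for Cxcl1, -0.99 for Vcam1 and 0.54 for Csf1. The inhibitors were at -1.39 for Nfkbia, -0.91 for Nfkbie, -0.85 for Bcl3 and 1.01 for Nfkbib, and the Rel factor Nfkb2 at 0.37. Receptors, feedback regulators and kinases were at -0.98 for Tnfrsf1b, -0.48 for Tnfaip3, 0.63 for Tnfaip2, -0.78 for Ikbke and -0.40 for Ikbkg. The enzymes and cell death regulators were at 0.67 for Ptgs2, -0.34 for Sod2, -0.54 for Casp8 and 0.62 for Cflar.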

How the results depend on the processing

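Of 3890 values of called members under the alternatives, 304 missed the threshold and 0 changed direction. Counts of members called between KO2 and KO1 with the Ctrl vector were 16 with the compared groups alone and 6 to 14 leaving out a library. Leaving out a library gave 7 to 19 for Myc in KO2, 4 to 8 for KO against WT untreated and 3 to 13 under HU, where DESeq2 gave 4 and 6. For the other comparisons these ranges were 18 to 29 (KO1 against WT, Ctrl), 19 to 25 (KO2), 15 to 19 (Myc in WT), 13 to 20 (Myc in KO1), 12 to 22 and 17 to 22 (KO1 and KO2 against WT, Myc), 16 to 21 (interaction with Myc), 14 to 21 (HU in WT) and 10 to 15 (HU in KO). The replicate numbers only name libraries (correlations of same-numbered deviations -0.148 to 0.192 and -0.0136 to 0.0510), and the replicate block called 1 member, Ptgs2, for the HU interaction (log2FC -0.63, adjusted p = 0.00471 by edgeR), where leaving out a library gave 0 to 1. Over all genes, DESeq2 against edgeR called 716 against 1102 (HU in WT), 451 against 723 (HU in KO), 751 against 1349 (KO against WT untreated), 736 against 1233 (the same under HU) and 5 against 8 (HU interaction), and the compared groups alone called 1893 for KO against WT under HU, 4029 against 2398 for KO2 and KO1, 1541 against 3291 and 2775 against 4614 for KO1 and KO2 against WT with Myc. Leaving out a compared library also lowered the counts over all genes for KO2 against KO1 and for Myc in KO2. The same held for KO against WT, untreated and under HU. Halved counts gave 20 calls after HU in WT and 15 in KO. Depth limits Bcl3, Cxcl2, Rel and Ikbke, which had few counts in the HU libraries.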
